A study of Homo sapiens with 6 samples.

Results

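Ubiquitin-specific proteases (USPs) are the largest family of enzymes that remove ubiquitin from proteins. The genes described here were chosen by name: protein-coding genes whose current symbol is USP followed by digits, without USP7, USP18 and the USP17L genes, and without pseudogenes. This gave 49 genes of the 57500 listed in the deposited table. Of these, 43 passed the filter on low values, at least 1 TPM (a transcript level per length, scaled to the same total in every library) in at least 3 of 6 libraries, as did 15341 genes in all. USP6NL, which is not a protease, and USP41, which RefSeq lists as a pseudogene, were not counted. The choice used no measured value.

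Polyadenylated RNA was sequenced from HEK293T, a long-established cell line of human embryonic kidney origin. The labels give all 6 libraries a wild-type genotype. In 3 libraries, titled mock, the treatment is a vector control. In the other 3 the cells were transfected by PolyJet with pcDNA3-PRMT1, a plasmid for the main arginine methyltransferase that places asymmetric dimethylation. Whether controls were given an empty plasmid, and whether the libraries of a group are separate cultures, is not stated in the labels; p-values therefore reflect only variation among these libraries, possibly technical. The series title names acetylation, ubiquitination and the level of PRMT1 protein. The comparison asks which USP transcripts differ between cells given the PRMT1 plasmid and control cells.

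USPs share a papain-like catalytic fold in which a cysteine attacks the bond between ubiquitin and its target, or between ubiquitins of a chain. Some members trim proteins before they reach the proteasome, some spare receptors from lysosomal breakdown, and others act on histones or DNA repair factors. A few, among them USP39, lack the catalytic residues. Many work only with a partner, such as WDR48 for USP1, USP12 and USP46, or ATXN7L3 and ENY2 for USP22.

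The PRMT1 transcript stood at 378, 397 and 368 TPM in control libraries 1 to 3 and at 71656, 62895 and 84923 TPM in PRMT1 libraries 1 to 3, which matches the labels. Recovered read totals ranged from 18196800 to 23163958 per library. Control library 3 and PRMT1 library 2 lay apart from the other libraries of their groups on the leading axis of a principal component analysis, which took 69.2% of the variance. Of 11 genes that mark HEK293T or embryonic kidney cells, 10 reached 1 TPM in every library, and the list summed to 1589 to 1704 TPM in controls and 1126 to 1276 TPM with PRMT1. The summed markers of endothelium stayed at 0.197 TPM or less and those of hepatocytes at 0.874 TPM or less. Leukocyte markers summed to 2.02 to 2.59 TPM in controls and 2.32 to 3.59 TPM with PRMT1, with CD3E at 0 everywhere. Fibroblast markers summed to 12.5 to 17.2 TPM in controls and 9.72 to 10.5 TPM with PRMT1, with COL1A1 at 1 TPM or more in every library. The part of these marker levels in the results was not tested.

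Promoters are shown for 5 genes on which the comparisons turn: the related pair USP4 and USP15, the related pair USP25 and USP28, whose members changed unequally, and USP1, the most abundant USP that rose by at least 1 on the log2 scale. The sequences come from the RefSeq table on GRCh38.p14, run 5′ to 3′ in the direction of the gene, and were limited to stretches upstream of the start that hold no annotated exon. Capitals mark matches on either strand to the GC box, spelled GGGCGG, the CCAAT box, spelled by its name, or the E-box, which has the letters CACGTG.
USP4, chr3:49340072-49340303, minus strand: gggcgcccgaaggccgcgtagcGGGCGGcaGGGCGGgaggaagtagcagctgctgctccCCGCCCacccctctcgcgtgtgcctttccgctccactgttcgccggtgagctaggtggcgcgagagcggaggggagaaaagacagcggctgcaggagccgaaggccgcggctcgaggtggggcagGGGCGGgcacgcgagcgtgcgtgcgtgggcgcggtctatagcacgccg
USP15, chr12:62260171-62260337, plus strand: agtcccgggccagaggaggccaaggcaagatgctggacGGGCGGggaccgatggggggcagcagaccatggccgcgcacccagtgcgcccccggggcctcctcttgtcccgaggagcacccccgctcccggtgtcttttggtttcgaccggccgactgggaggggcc
USP25, chr21:15729732-15729981, plus strand: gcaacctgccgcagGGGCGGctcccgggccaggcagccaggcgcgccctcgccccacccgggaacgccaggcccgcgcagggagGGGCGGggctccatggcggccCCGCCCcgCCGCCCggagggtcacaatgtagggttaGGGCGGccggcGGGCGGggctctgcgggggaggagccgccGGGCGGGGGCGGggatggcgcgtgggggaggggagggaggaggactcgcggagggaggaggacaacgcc
USP28, chr11:113875573-113875822, minus strand: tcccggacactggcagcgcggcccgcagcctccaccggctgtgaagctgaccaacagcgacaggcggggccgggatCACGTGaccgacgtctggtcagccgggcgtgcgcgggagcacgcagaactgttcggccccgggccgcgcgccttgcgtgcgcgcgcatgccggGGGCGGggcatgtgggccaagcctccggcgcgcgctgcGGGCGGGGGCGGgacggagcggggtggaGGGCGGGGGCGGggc
USP1, chr1:62436145-62436296, plus strand: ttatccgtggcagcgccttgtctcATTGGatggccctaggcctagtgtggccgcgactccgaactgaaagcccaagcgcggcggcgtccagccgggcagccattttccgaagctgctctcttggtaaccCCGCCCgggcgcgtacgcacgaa
The USP25 stretch of 250 bases held 8 GC boxes and the USP28 stretch of 250 bases held 5 GC boxes and 1 E-box. Between USP4, with 4 GC boxes in 232 bases, and USP15, with 1 in 167 bases, the lengths differ, so the counts are not comparable. The USP1 stretch of 152 bases held 1 GC box and 1 CCAAT box. RefSeq entries matched 38 of the 49 members with 50 promoters between them. In the 250 bases upstream of the start, a GC box on either strand was present in 72.0% of these promoters and in 42.6% of all 35116 promoters in the table. An ETS motif, searched as CCGGAAG, was present in 22.0% of member promoters against 8.52% of all. The CCAAT box was present in 22.0% against 32.01%, and the E-box in 6.00% against 6.34%. A TATA box, searched as TATAAA, was present in 4.00% against 10.7%. The YY1 motif, searched as AAGATGGC, was found in 0 of the 50 member promoters and in 1.36% of all promoters. The cyclic AMP response element, searched as TGACGTCA, was likewise found in 0 of the 50 and in 1.65% of all. Motifs may overlap one another, and a match describes letters, not a bound factor. The median GC content of these windows was 69.0% for members and 58.0% for all. No entry was given for USP44, USP9X, USP24, USP37, USP42, USP43, USP48, USP31, USP51, USP26 or USP9Y.

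Most USP transcripts were more abundant with the PRMT1 plasmid. With limma on log2(TPM + 1) and Benjamini-Hochberg adjustment over all tested genes, 29 of 43 USP genes (67.4%) rose, 1 (2.33%), USP11, fell, and 13 did not pass the threshold of 0.05. Over all tested genes, 40.3% rose and 8.64% fell, so a rise was common in this comparison. The median log2 fold change was 0.62 over the USP genes and 0.30 over all tested genes, and 42 of 43 USP values were above 0. In 33 USP genes (76.7%) every PRMT1 library exceeded every control library, against 49.8% of all tested genes, and in 1 (2.33%) the order was the opposite, against 11.6%. Only 6 USP genes (14.0%) rose by at least 1 on the log2 scale, against 9.96% of all tested genes.

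The size of the shift depended on how libraries were set to a common scale. Every TPM column sums to 1000000, and on this scale the median tested gene lay at 3.05 to 3.23 (log2) in controls and at 3.55 to 3.71 in the PRMT1 libraries. Under median-of-ratios scaling, which moved the median of all tested genes from 0.30 to 0.01, 21 USP genes rose and 1 fell (48.8% and 2.33%), while 23.5% of all tested genes rose and 24.1% fell. Under quantile normalization, 16 rose and 2 fell (37.2% and 4.65%), against 20.3% and 19.4% of all. A correction for the GC content of transcripts gave 19 and 1 (44.2% and 2.33%), against 23.7% and 25.3%. When PRMT1 was removed and the other genes rescaled, 33 rose and USP11 lost its call, while 49.1% of all rose and 5.68% fell. The distance between the USP median and the median of all tested genes was 0.32 in TPM, 0.30 under median-of-ratios scaling, 0.29 under quantile normalization and 0.26 after the GC correction.

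**Figure D1:**
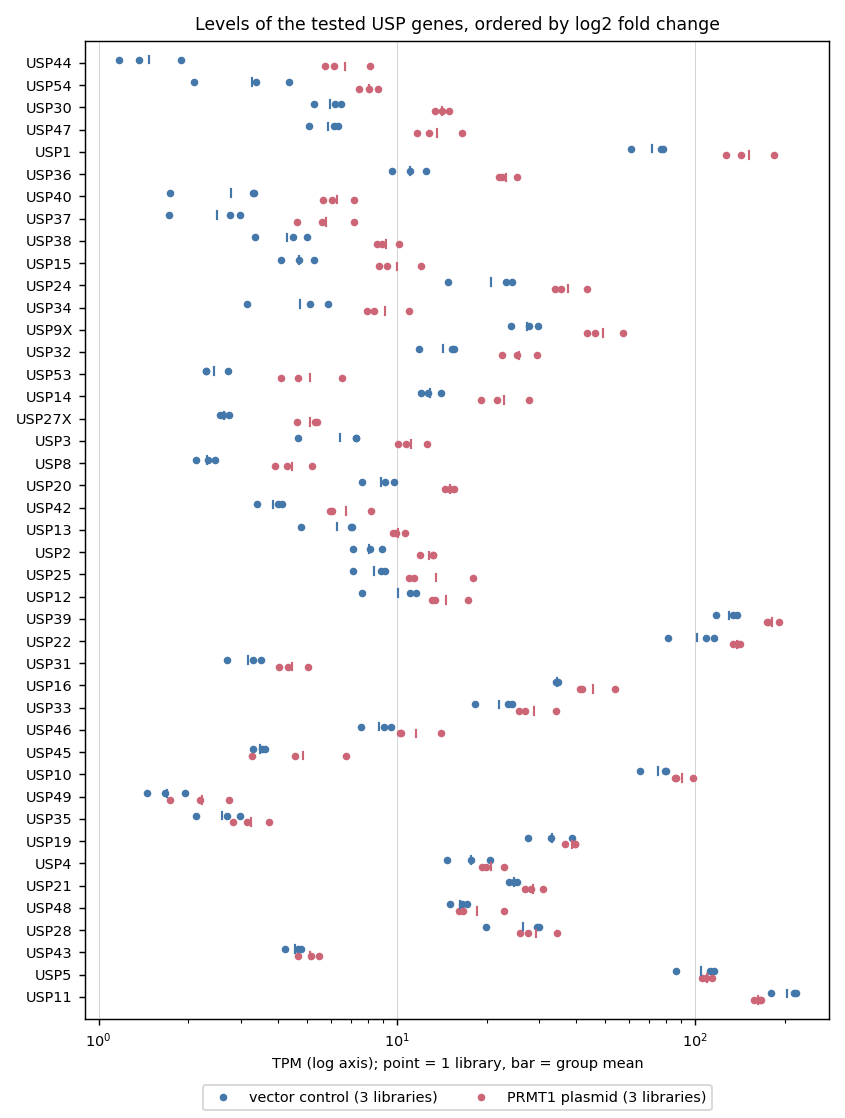
TPM (log axis) of the 43 tested USP genes in each library, ordered by log2 fold change; points are libraries and bars group means. In 33 genes the 3 PRMT1 libraries lie to the right of the 3 control libraries, and in USP11 they lie to the left.

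Control library 3 was the lowest control in 41 of the 43 tested USP genes, and PRMT1 library 2 was the highest PRMT1 library in 34. The same shares over all tested genes were not computed. The median tested gene followed the same order, lowest among controls in control library 3 (3.05, log2) and highest in PRMT1 library 2 (3.71). These are the libraries that stood apart. Without both, 28 USP genes rose and 1 fell (65.1% and 2.33%), against 37.2% and 13.8% of all tested genes, and the USP median was 0.45. Over 18 alternatives in scaling, filter, pseudocount, model and libraries used, 14 of the 30 called USP genes kept their call and direction in all that could fit them: USP44, USP54, USP30, USP47, USP1, USP36, USP40, USP37, USP38, USP15, USP24, USP9X, USP32 and USP14. Leaving out a single library ended the call of 6 genes: USP31 (any of the 6 libraries, adjusted p = 0.0659 to 0.164 by limma), USP12 (5 of 6 libraries, 0.0607 to 0.131), USP25 (4 of 6, 0.0548 to 0.0941), USP11 (4 of 6, 0.0518 to 0.0737), USP22 (3 of 6, 0.0514 to 0.0648) and USP16 (3 of 6, 0.0507 to 0.0652). Median-of-ratios scaling ended the calls of USP39, USP13, USP42, USP12, USP31, USP22, USP25 and USP16. The GC correction ended those of USP34, USP13, USP42, USP12, USP8, USP3, USP31, USP22, USP25 and USP16. Quantile normalization ended those of USP34, USP13, USP53, USP42, USP27X, USP20, USP2, USP12, USP8, USP3, USP31, USP25 and USP16.

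Among USPs that act in DNA repair, replication and the checkpoint, 4 of 8 tested genes rose and 1 fell, also under median-of-ratios scaling. Of all tested genes, 40.3% rose and 8.64% fell in TPM, and 23.5% and 24.1% did under median-of-ratios scaling. USP11, a deubiquitinase of the homologous recombination factors BRCA2 and PALB2 (chrX:47232690-47248328 on GRCh38, as are all positions, from GENCODE 29), was the most abundant USP in controls. It measured 215, 217 and 179 TPM in control libraries 1 to 3 and 166, 157 and 166 TPM in PRMT1 libraries 1 to 3. The lowest control library thus lay above all PRMT1 libraries. The means were 204 ± 21.2 and 163 ± 5.12 TPM (SD, n = 3 each), a difference of -0.32 ± 0.09 on the log2 scale (SE; adjusted p = 0.0192 by limma). The difference grew to -0.67 under median-of-ratios scaling (adjusted p = 0.00111 by limma), and missed the threshold at -0.21 after removal of PRMT1 (adjusted p = 0.0798 by limma). It also missed the threshold, at -0.33 to -0.27, without control library 1 or 2 or PRMT1 library 1 or 2, and it passed, at -0.38, without the 2 libraries that stood apart (adjusted p = 0.00118 by limma).

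USP1, which with WDR48 removes the single ubiquitin from FANCD2 and PCNA (chr1:62436297-62451804), was at 78.0, 76.9 and 61.0 TPM in controls and 143, 184 and 127 TPM with PRMT1. Its groups were far apart, with all PRMT1 libraries above the highest control. The rise was 1.05 ± 0.15 on the log2 scale (SE; adjusted p = 0.0013 by limma), and 0.70 under median-of-ratios scaling. USP47, which acts on DNA polymerase beta (chr11:11841423-11959323), rose from 6.34, 6.15 and 5.09 TPM to 11.7, 16.5 and 12.8 TPM, a rise of 1.09 ± 0.15 on the log2 scale (SE; adjusted p = 0.00108 by limma). USP37, a deubiquitinase of cyclin A (chr2:218450251-218568361), rose from 2.99, 2.76 and 1.73 TPM to 5.60, 7.16 and 4.64 TPM, a change of 0.96 ± 0.20 (SE; adjusted p = 0.00606 by limma). In both genes every PRMT1 library exceeded every control library. On the opposite strand VIL1 overlaps 32.8% of the exonic length of USP37, and without a stated strand setting their reads cannot be told apart, although VIL1 itself was listed at 0 to 0.0224 TPM. USP24 rose by 0.85 (20.8 to 37.6 TPM). USP28, USP45 and USP48 did not pass the threshold. USP28, which acts with the FBW7 ligase on MYC, was at 29.4, 29.95 and 19.96 TPM in controls and 27.4, 34.6 and 25.9 TPM with PRMT1, with overlapping groups and a log2 value of 0.15 ± 0.18 (SE). USP48 was at 17.2, 16.6 and 15.02 against 16.2, 22.9 and 16.7 TPM, also overlapping.

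Of the USPs linked to ubiquitin on histones H2A and H2B, 5 of 7 tested genes rose, and 3 did under median-of-ratios scaling. Over all tested genes, 40.3% rose in TPM and 23.5% under median-of-ratios scaling. The widest relative change of any USP was in USP44, which acts on H2B and in the mitotic checkpoint (chr12:95516560-95551490). It stood at 1.90, 1.37 and 1.17 TPM in controls and at 6.16, 8.15 and 5.76 TPM with PRMT1, from 145 and 677 recovered reads per group. The lowest PRMT1 library was above the highest control, and the rise was 1.63 ± 0.18 on the log2 scale (SE; adjusted p = 0.000402 by limma), or 1.37 under median-of-ratios scaling and 1.13 after GC correction. The mean TPM was 4.52 times that of the controls. USP49, which also acts on H2B and resembles USP44, was at 1.67, 1.95 and 1.45 TPM in controls and 2.19, 2.74 and 1.73 TPM with PRMT1. Those groups overlapped, with a log2 value of 0.25 ± 0.17 (SE; adjusted p = 0.261 by limma).

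USP22, the H2B protease of the SAGA coactivator (chr17:20999593-21043760), was at 109, 116 and 80.9 TPM in controls and 134, 141 and 139 TPM with PRMT1. It rose by 0.45 ± 0.13 (SE; adjusted p = 0.0225 by limma), but its value was 0.09 under median-of-ratios scaling (adjusted p = 0.476 by limma). USP27X, which can replace it beside ATXN7L3 and ENY2, rose by 0.74, from 2.64 to 5.11 TPM on average. USP51, the remaining enzyme of that set, did not reach the filter. It had 0.326, 0.152 and 0.349 TPM in controls and 0.868, 1.13 and 1.35 TPM with PRMT1, from 22 and 91 reads, and fitted without the filter its log2 value was 0.73 (adjusted p = 0.0171 by limma). In USP51 too the PRMT1 libraries lay above all controls. USP16, which clears ubiquitin from H2A in mitosis (chr21:29024629-29054488), had close control values of 34.7, 34.6 and 34.3 TPM and 41.1, 53.9 and 41.8 TPM with PRMT1. Its rise of 0.38 ± 0.11 (SE; adjusted p = 0.025 by limma) was 0.03 under median-of-ratios scaling and -0.14 after GC correction, where it missed the threshold. USP3, an H2A protease with USP3-AS1 antisense to 22.7% of its exonic length, rose by 0.72, and USP21, at 0.21, did not pass.

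Among USPs of endosomes, membranes and secretion, 7 of 9 tested genes rose, with 7 under median-of-ratios scaling, 6 after GC correction and 3 under quantile normalization. Of all tested genes, 40.3% rose in TPM, 23.5% under median-of-ratios scaling, 23.7% after GC correction and 20.3% under quantile normalization. USP54 (chr10:73497538-73625953) measured 3.38, 4.35 and 2.08 TPM in controls and 8.08, 8.66 and 7.47 TPM with PRMT1. The groups were apart, with a rise of 1.12 ± 0.20 on the log2 scale (SE; adjusted p = 0.00323 by limma). An antisense transcript, PPP3CB-AS1, overlaps 16.1% of its exonic length. USP9X, a large protease of many trafficking and signalling proteins, rose by 0.82 (27.2 to 49.0 TPM). USP32, the relative of USP6, rose by 0.81, but 18.3% of its 50-base stretches occur in other genes, so its level is uncertain. USP53 rose by 0.81. USP8, which spares receptors such as EGFR from lysosomal sorting, rose by 0.72, USP20 by 0.70 and USP2 by 0.61. Under quantile normalization USP53 (0.36), USP8 (0.28), USP20 (0.29) and USP2 (0.18) missed the threshold, and USP8 also did after GC correction (0.25). USP33, the relative of USP20 that also binds VHL, was at 0.37 and did not pass (adjusted p = 0.0679 by limma). USP19, an enzyme anchored in the endoplasmic reticulum (chr3:49108046-49120938), was at 33.0, 38.8 and 27.5 TPM in controls and 39.6, 36.6 and 39.6 TPM with PRMT1, and these overlapped.

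In the list named for proteasome-bound USPs and those of free chains, 3 of 4 genes rose (1 under median-of-ratios scaling). The most abundant of the 4 did not pass. The rising shares over all tested genes were 40.3% in TPM and 23.5% under median-of-ratios scaling. USP5, which takes apart unanchored ubiquitin chains (chr12:6852128-6866632), was at 112, 116 and 86.0 TPM in controls and 106, 109 and 114 TPM with PRMT1. The groups overlapped, with a log2 value of 0.08 ± 0.12 (SE; adjusted p = 0.595 by limma) that was -0.28 under median-of-ratios scaling (adjusted p = 0.0518 by limma). USP14, which edits chains on the proteasome, rose by 0.76 (12.9 to 22.8 TPM). USP13, the relative of USP5, rose by 0.62, and USP25 by 0.60. Those last 2 rises were lost under median-of-ratios scaling, at 0.31 and 0.27.

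Of the nucleolar and RNA-linked USPs, 4 of 6 rose, and 2 did under median-of-ratios scaling, beside 40.3% and 23.5% of all tested genes. USP36, a nucleolar enzyme of ribosome production (chr17:78787381-78841441), went from 11.1, 12.5 and 9.63 TPM to 22.0, 22.6 and 25.3 TPM, without overlap. It rose by 1.02 ± 0.12 (SE; adjusted p = 0.000515 by limma). USP15, which acts in TGF-beta signalling and on splicing factors (chr12:62260338-62417431), went from 5.27, 4.72 and 4.09 TPM to 9.25, 12.1 and 8.72 TPM, again without overlap, a rise of 0.94 ± 0.15 (SE; adjusted p = 0.0019 by limma). USP4, its close relative (chr3:49277831-49340712), was at 17.7, 20.6 and 14.8 TPM against 19.3, 22.9 and 19.9 TPM. The USP4 groups overlapped and the log2 value of 0.22 did not pass (adjusted p = 0.203 by limma).

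USP39, the inactive family member that joins the splicing tri-snRNP (chr2:85602856-85649282), was at 138, 134 and 117 TPM in controls and 174, 192 and 175 TPM with PRMT1. All PRMT1 libraries were higher, and the rise was 0.48 ± 0.08 on the log2 scale (SE; adjusted p = 0.00295 by limma), but 0.12 under median-of-ratios scaling (adjusted p = 0.172 by limma). USP10, a partner of the stress granule protein G3BP1 (chr16:84699978-84779922), was at 79.4, 80.0 and 65.3 TPM against 85.4, 98.4 and 86.4 TPM. Although the groups did not overlap, its value of 0.27 did not pass (adjusted p = 0.0652 by limma), and 8.45% of its 50-base stretches occur in other genes. USP42 rose by 0.67, but missed the threshold under median-of-ratios scaling (0.37, adjusted p = 0.0501 by limma), GC correction (0.37) and quantile normalization (0.21).

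Of the 3 enzymes that need WDR48, USP1 and USP12 rose. USP12 rose by 0.50 (adjusted p = 0.0444 by limma), a call lost under median-of-ratios scaling at 0.18, and 5.97% of its 50-base stretches occur in other genes. USP46, its close relative, did not pass at 0.36. At mitochondria, USP30, the outer membrane enzyme that opposes parkin (chr12:109023089-109088026), went from 6.19, 6.502 and 5.28 TPM to 14.1, 14.95 and 13.4 TPM. The gap between groups was wide next to the spread within them, and the rise was 1.12 ± 0.11 on the log2 scale (SE; adjusted p = 0.0003 by limma), or 0.80 under median-of-ratios scaling. USP35, also placed at mitochondria (chr11:78188812-78214711), was at 2.99, 2.69 and 2.12 TPM against 3.74, 2.82 and 3.15 TPM, with overlap and no call.

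In the sparsely described group 4 of 5 tested genes rose, and 3 did under median-of-ratios scaling, beside 40.3% and 23.5% of all tested genes. USP40 (chr2:233475520-233566782) had 3.31, 3.30 and 1.73 TPM in controls and 5.64, 7.17 and 6.07 TPM with PRMT1, a rise of 0.97 ± 0.20 on the log2 scale (SE; adjusted p = 0.00605 by limma). USP38 (chr4:143184917-143223830) had 5.00, 4.50 and 3.35 TPM and 8.90, 10.2 and 8.55 TPM, a change of 0.96 ± 0.15 (SE; adjusted p = 0.00178 by limma). In neither gene did the groups overlap. USP34 rose by 0.84, a call lost after GC correction (0.37, adjusted p = 0.0749 by limma) and under quantile normalization (0.39, adjusted p = 0.104 by limma). AHSA2P on the opposite strand, which overlaps 18.0% of its exonic length, was at 0.611 to 0.915 TPM in controls and 2.49 to 2.70 TPM with PRMT1. USP31 rose by 0.39, a call lost in most alternatives (limma adjusted p = 0.0495 in TPM), and 22.7% of its 50-base stretches also lie in AC127459.1, a transcript on the same strand. USP43 was at 4.76, 4.67 and 4.21 TPM against 4.68, 5.48 and 5.15 TPM and did not pass, while under quantile normalization it was called lower at -0.33 (adjusted p = 0.0298 by limma). USP26, known mainly from testis, and USP29 were at 0 in all 6 libraries, where 3 reads would have given at most 0.127 and 0.135 TPM. USP50 had 1 read in all, and USP6 had 8 reads in controls and 21 with PRMT1.

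**Figure D2:**
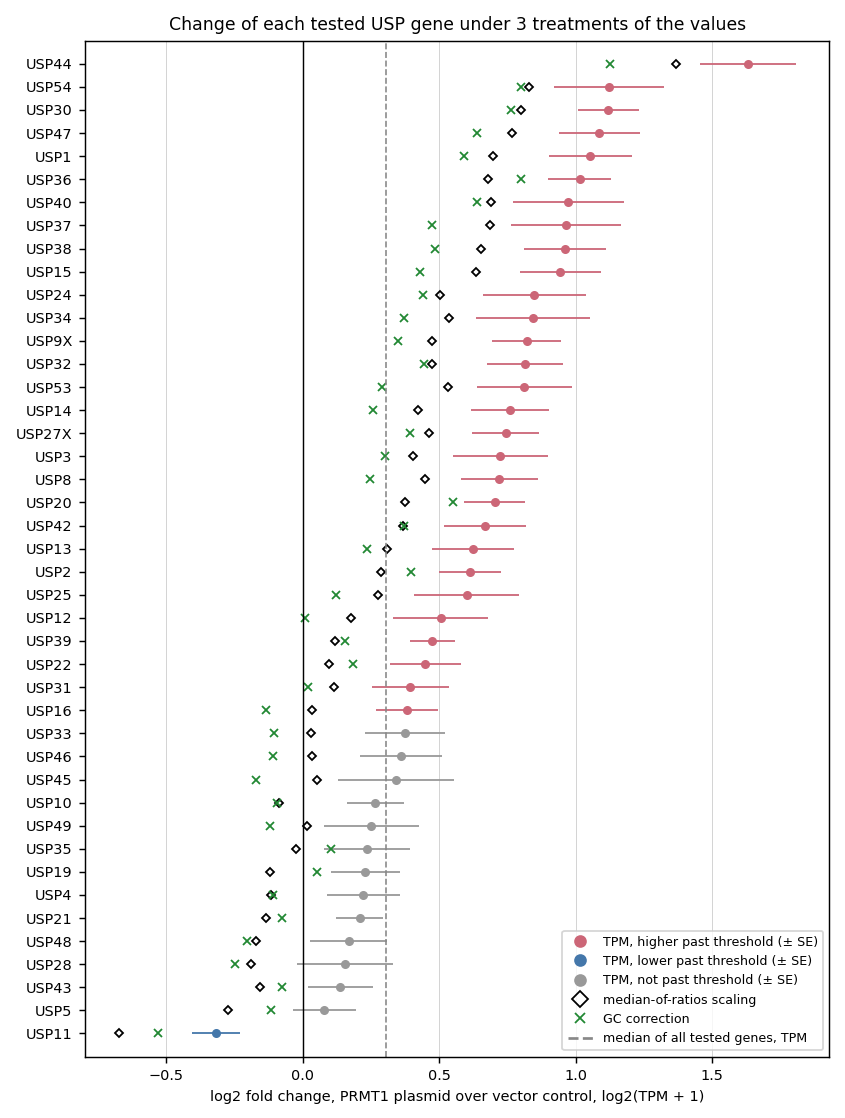
Log2 fold change of each tested USP gene with its SE in TPM (circles), with the value under median-of-ratios scaling (diamonds) and after GC correction (crosses); the dashed line is the median of all tested genes, 0.30. USP44 stays highest and USP11 lowest under all 3.

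Relatives within the family were set against each other by the log2 ratio of their TPM in the same library, which does not depend on how libraries are scaled but can depend on GC content. Of 18 pairs, 11 had ratios that did not overlap between groups. The share over gene pairs at large was not computed. Among single tested genes, TPM did not overlap in 49.8% (higher) and 11.6% (lower). Those shares depend on library scaling and are no background for ratios. Whether the count of pairs is particular to USP relatives was not tested. The smallest p that an exact two-sided permutation test of 3 against 3 can give is 0.1, so no pair could pass. After adjustment over the 18 pairs, the smallest value obtained from this test was 0.164. The pairs share genes and libraries and are not independent. USP22 with USP51 and USP6 with USP32 were left out because a member was under the filter.

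The widest shift was in USP44 over USP49. Their log2 ratio was 0.19, -0.51 and -0.31 in control libraries 1 to 3 and 1.496, 1.57 and 1.73 in PRMT1 libraries 1 to 3. The mean moved by 1.81, from near equal levels to a clear excess of USP44. USP4, USP11 and USP15, which form a branch of the family, changed unequally, and their levels came closer together. The ratio of USP11 to USP15 was 5.35, 5.53 and 5.46 in controls and 4.16, 3.70 and 4.25 with PRMT1, a shift of -1.40. The ratio of USP4 to USP15 was 1.75, 2.13 and 1.85 in controls and 1.06, 0.92 and 1.19 with PRMT1, a shift of -0.85. USP4 gained on USP11 by 0.55. Of this branch, then, USP15 rose, USP4 did not pass and USP11 fell, and USP11 remained by far the most abundant.

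The ratio of USP35 to USP38 was -0.74, -0.74 and -0.66 in controls and -1.25, -1.86 and -1.44 with PRMT1, a shift of -0.80. Their transcripts differ in GC content, at 61.3% and 40.1%, and the difference of their log2 fold changes was -0.72 in TPM and -0.38 after GC correction of both genes, an alternative chosen after seeing the data. The same correction moved the difference of USP5 and USP13 from -0.54 to -0.35, of USP31 and USP43 from 0.26 to 0.10, of USP53 and USP54 from -0.31 to -0.51, and of USP20 and USP33 from 0.33 to 0.66. USP5 lost 0.63 against USP13. USP25 gained 0.50 on USP28, USP2 gained 0.46 on USP21, USP20 gained 0.38 on USP33, USP31 gained 0.33 on USP43 and USP12 gained 0.15 on USP46, none of them overlapping. The ratios of USP47 to USP40 and of USP16 to USP45 moved least, by -0.02 each, with overlapping groups. Within the second of these, USP45, which acts with the ERCC1-XPF nuclease, was at 3.61, 3.54 and 3.31 TPM in controls and at 4.54, 6.76 and 3.27 TPM with PRMT1, so that PRMT1 library 3 was below every control.

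**Figure D3:**
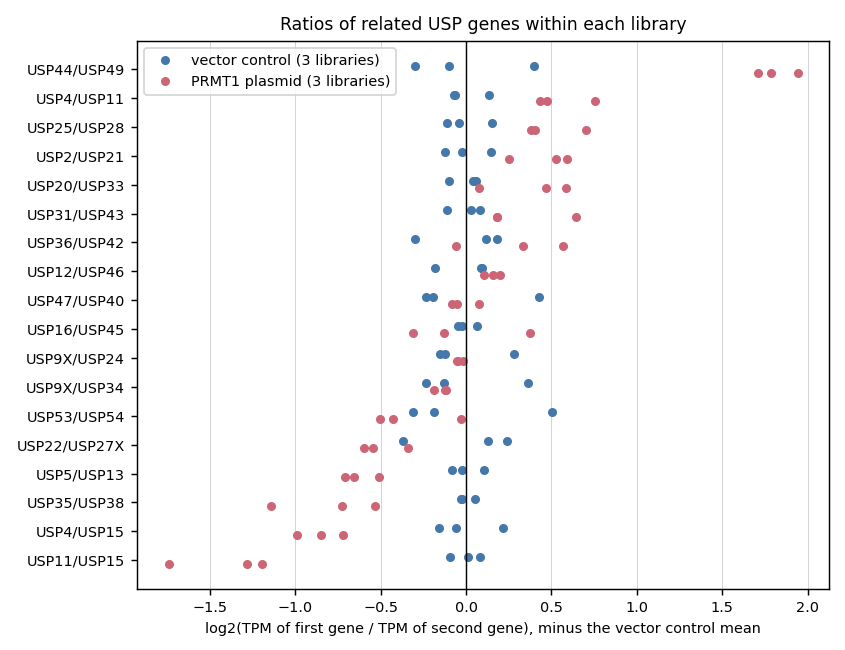
Log2 ratio of related USP genes within each library, minus the control mean of the pair; points are the 3 control and 3 PRMT1 libraries. USP44 over USP49 moved up by 1.81 and USP11 over USP15 down by 1.40, while USP47 over USP40 moved by 0.02.

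The family's summed level (all members except USP9Y) was 1133, 1153 and 916 TPM in controls and 1357, 1538 and 1351 TPM with PRMT1. The means were 1067 ± 132 and 1416 ± 106 TPM (SD, n = 3 each), without overlap (exact two-sided permutation p = 0.1, the smallest the design allows). As a share of all TPM outside PRMT1 this was 0.107% ± 0.0132 and 0.153% ± 0.00999. The 6 most abundant USPs in controls, USP11, USP39, USP5, USP22, USP10 and USP1, made up 64.6%, 64.05% and 64.4% of the sum in controls and 59.6%, 57.3% and 59.8% with PRMT1. The share was lower in each PRMT1 library than in any control (exact two-sided permutation p = 0.1).

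Within the sum, USP11 held 19.0%, 18.8% and 19.6% in controls and 12.2%, 10.2% and 12.3% with PRMT1, and by group mean it passed from the first to the second place behind USP39. In PRMT1 library 2 it was also below USP1. USP1 held 6.89%, 6.66% and 6.66% in controls and 10.5%, 11.9% and 9.41% with PRMT1, and by group mean it passed from the sixth to the third place. In PRMT1 library 3 it was below USP22. USP5 held 9.77% ± 0.329 in controls and 7.77% ± 0.687 with PRMT1 (SD, n = 3 each), and USP10 7.02% ± 0.0975 and 6.36% ± 0.0587. For USP39 and USP22 the shares overlapped, at 12.2% and 12.8% and at 9.50% and 9.77% on average. Shares of a fixed whole are tied to each other, so a lower USP11 share by itself raises the rest. The share was higher without overlap in 24 members, and lower without overlap in USP11, USP5, USP10, USP4 and USP43. Such shares were not computed for other gene sets, so these counts have no background and are not particular results of USPs. In TPM, 49.8% of all tested genes were higher without overlap and 11.6% lower.

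**Figure D4:**
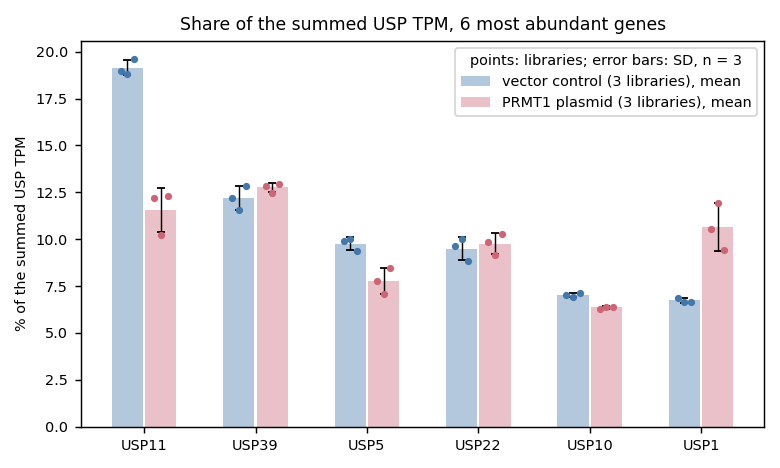
Share (%) of the summed USP TPM held by the 6 most abundant USP genes; bars are group means, error bars SD over 3 libraries and points the libraries. The USP11 share lies at 18.8 to 19.6% in controls and 10.2 to 12.3% with PRMT1, and the USP1 share at 6.66 to 6.89% and 9.41 to 11.9%.

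Values were lower in abundant and GC-rich members, as they were in abundant and GC-rich genes at large. The median log2 fold change was 0.74, 0.66 and 0.38 in members of low, middle and high mean level, and 0.44, 0.42 and 0.16 in all tested genes within the same ranges. By mean level, 11 of 15 members between 1.96 and 6.92 TPM rose, 11 of 14 between 7.35 and 19.2 TPM rose, and 7 of 14 between 20.004 and 183 TPM rose and 1 fell. All tested genes in the same ranges rose in 45.6%, 51.6% and 36.4% of cases. By GC content of the transcript, 12 of 15 members between 34.5% and 40.6% rose, against 51.7% of all genes in that range. Of the 14 members between 48.9% and 61.3%, 7 rose and 1 fell, against 36.4% and 11.2% of all. Across the 43 genes, Spearman's rho of the log2 fold change with GC content was -0.35, against -0.24 across 15276 tested genes, and after the GC correction -0.03. With exonic length it was 0.36 against 0.15, and with mean level -0.28 against -0.25. These describe genes measured in the same libraries, which are not independent replicates.

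Of the genes for proteins that USPs work with, 10 of 15 rose and 1 fell, with a median of 0.61, against 40.3% and 8.64% of all tested genes. They had 7 higher and 1 lower under median-of-ratios scaling, and 7 and 3 after GC correction. Of all tested genes, 23.5% rose and 24.1% fell under that scaling, and 23.7% and 25.3% did after GC correction. G3BP1, the partner of USP10, rose by 1.16, from 16.4 to 37.9 TPM. RAD18, the ligase that marks PCNA for USP1 to clear, rose by 1.08, and SART3, which recruits USP4 and USP15 to splicing factors, by 0.92. Beyond the 3 with the smallest p, WDR48 rose by 0.67 and ENY2, a subunit of the USP22 module, fell by 0.31; these 2 were chosen after their values were seen. Of the other genes with a USP-like fold, CYLD, the protease of linear and lysine-63 chains, rose by 1.204 and USPL1 by 0.66, while PAN2, at 0.23, did not pass. WDR48 missed the threshold after GC correction, and USPL1 under median-of-ratios scaling, quantile normalization and GC correction.

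The other deubiquitinase families together, without these USP-fold genes, had 15 of 38 tested genes higher, 5 lower and a median of 0.25, close to that of all tested genes. Under median-of-ratios scaling they had 13 higher and 12 lower, where the USP genes had 21 and 1. Over all tested genes, 40.3% rose and 8.64% fell in TPM, and 23.5% and 24.1% did under median-of-ratios scaling. The difference between the families was not tested. The list of the JAMM family, only some of whose members are zinc-dependent proteases, had 6 of 12 higher and 2 lower (6 and 5 under median-of-ratios scaling). Among the higher were MYSM1, a histone H2A protease, at 1.37, the proteasome lid subunit PSMD7 at 0.89 and the COP9 signalosome subunit COPS5 at 0.78. Ovarian tumour (OTU) proteases had 4 of 14 higher and 2 lower (4 and 5 under median-of-ratios scaling). Those with the smallest p were OTUD7B at 1.12, OTUD6B at 1.00 and OTUD4 at 0.67. OTUD4 missed the threshold under quantile normalization and after GC correction. In the ubiquitin C-terminal hydrolase family UCHL5 rose by 0.47 and UCHL1 fell by 0.23. UCHL5 missed the threshold under median-of-ratios scaling (0.12, adjusted p = 0.329 by limma) and stood at -0.05 after GC correction, and UCHL1 missed it under quantile normalization (adjusted p = 0.24 by limma). JOSD1 rose by 0.69 as the only called Josephin gene of 3. ZUP1 at 1.07, MINDY3 at 0.70 and MINDY4 at 0.55 rose among 5 MINDY and ZUP1 genes. MINDY4 missed the threshold under all 3 of median-of-ratios scaling, quantile normalization and GC correction, and MINDY3 under the last 2.

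The list of SUMO proteases, which remove the related modifier SUMO, had 5 of 9 genes higher, against 40.3% of all tested genes, with SENP8 at 1.21, SENP1 at 0.84 and SENP2 at 0.71. It had 3 higher and 1 lower under median-of-ratios scaling and after GC correction, and 3 and 2 under quantile normalization. Of all tested genes, 23.5% rose and 24.1% fell under median-of-ratios scaling. The shares were 23.7% and 25.3% after GC correction, and 20.3% and 19.4% under quantile normalization. SENP8 acts on the modifier NEDD8, not on SUMO.

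**Figure D5:**
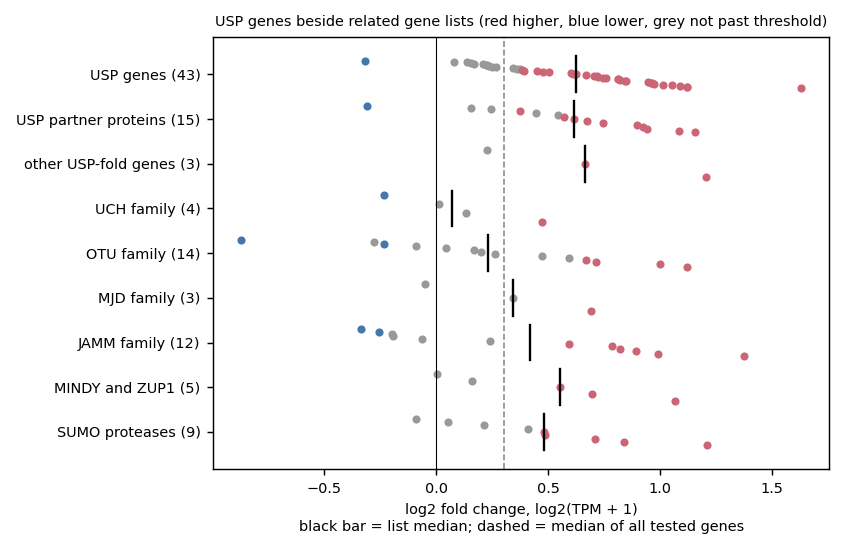
Log2 fold change of the tested members of the USP family and of related gene lists, with the number tested; red is higher and blue lower past the threshold, grey not past it, black bars are list medians and the dashed line the median of all tested genes. The USP median of 0.62 lies to the right of that line at 0.30, and the median of the OTU family, 0.23, to its left.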

How the data were processed

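Polyadenylated RNA of 6 HEK293T libraries was measured, and the authors deposited 1 table of TPM values per Ensembl gene. Tools listed in the submitters' processing notes, without role or order, are featureCounts, Subread 1.5.2, STAR 2.5.2b and Trimmomatic 0.36, and the build is GRCh38. Which annotation and strand setting were used, and how TPM was computed, is not given in the sources used here. Every deposited TPM column adds up to 1000000, and an abundant transcript therefore lowers the values of the rest. All columns matched 1 sample title each.

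TPM keeps no depth, but after multiplication by exonic length from GENCODE 29, low values were multiples of a fixed unit in each library (95.5 to 95.7% of values under 50 reads were whole within 0.05), and this gave the read totals. Floors of 3 reads cover counting error only. Symbols were found for 40907 of 57500 identifiers. Libraries of a group differed beyond counting noise (chi-square per degree of freedom 2.70 to 24.6), so none was taken as a duplicate.

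After the filter (1 TPM or more in 3 or more libraries), log2(TPM + 1) values were fitted in R 4.3.3 by limma 3.58.1 (lmFit, eBayes with trend, no covariate), with Benjamini-Hochberg adjustment over 15341 genes and a threshold of 0.05. This scale understates changes of low genes. The fit was also tested on simulated data. Ratios and sums used exact permutation tests in scipy 1.17.1. The GC correction subtracts a lowess curve of span 0.3. Sequence sharing was counted in 50-base words of GENCODE transcripts, and under 1% were shared for 41 of 49 members.

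Members and lists were chosen with earlier results of these data known. Values in each library are given for the 8 most abundant members in controls, the 10 largest rises and the falls without overlap, the 4 members nearest to no change, and both genes of the 4 most and 2 least changed pairs, and from each related list up to 3 genes with the smallest p are named. Alternatives covered pseudocount, filter, scaling, PRMT1 taken out, variance trend, GC content, replicate block and libraries left out. USP9Y values and 1 related list are not reported here.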

Additional observations from a re-analysis of the deposited data

How the results depend on the processing

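Alternatives in scaling, filter, model and libraries used were run for the 43 tested USP genes; the 18 pairs were run with libraries left out, with 1 TPM added and, chosen after seeing the data, with the GC correction of both genes. The number of USP genes that rose, 29 in TPM, was 16 under quantile normalization, 19 after GC correction, 16 after GC correction with the replicate block, and 19 with GC correction after median-of-ratios scaling, an alternative chosen after seeing the data. The number that fell, 1, was 2 under quantile normalization and 0 with PRMT1 taken out. The USP median of 0.62 was 0.43 with a pseudocount of 5 TPM, 0.31 under median-of-ratios scaling, 0.28 under quantile normalization, 0.25 after GC correction, with or without the block, 0.23 under the added alternative, and 0.45 without control library 3 and PRMT1 library 2. Leaving out 1 library at a time gave 25 to 27 rising and 0 to 1 falling USP genes, with a median of 0.53 to 0.69. The counts over all tested genes, 6190 higher and 1325 lower, became 3605 and 3692 under median-of-ratios scaling, 3109 and 2979 under quantile normalization, 3630 and 3874 after GC correction, and 3278 and 3640 with the block added. There were 880 lower with PRMT1 taken out and 2115 lower without both libraries, and 5082 to 5634 higher and 935 to 1520 lower with 1 library left out. The causes were not tested.

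Values that changed sign were small and, in TPM, not past the threshold, except for USP16 and USP31. Under median-of-ratios scaling they were USP48 at -0.17, USP21 at -0.14, USP19 at -0.12, USP4 at -0.12, USP35 at -0.026, USP28 at -0.19, USP5 at -0.28, USP10 at -0.088 and USP43 at -0.16. Under quantile normalization they were USP48 at -0.19, USP21 at -0.10, USP19 at -0.022, USP4 at -0.12, USP46 at -0.078, USP49 at -0.15, USP45 at -0.12, USP35 at -0.20, USP28 at -0.15, USP31 at -0.051 and USP43 at -0.33. After GC correction, with or without the block, they were USP48 at -0.20, USP33 at -0.11, USP21 at -0.078, USP4 at -0.11, USP46 at -0.11, USP49 at -0.12, USP45 at -0.17, USP28 at -0.25, USP5 at -0.12, USP10 at -0.093, USP43 at -0.076 and USP16 at -0.14. With libraries left out, 1 at a time or control library 3 and PRMT1 library 2 together, the range crossed 0 for USP48 (-0.036 to 0.26), USP28 (-0.15 to 0.25), USP5 (-0.054 to 0.16), USP9X over USP34 (-0.26 to 0.063), USP9X over USP24 (-0.12 to 0.10), USP16 over USP45 (-0.22 to 0.15) and USP47 over USP40 (-0.14 to 0.19). With 1 TPM added before the ratio, USP16 over USP45 shifted by 0.041 and USP47 over USP40 shifted by 0.11, and with the GC correction of both genes USP16 over USP45 shifted by 0.035.

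Same-numbered libraries did not deviate together, with correlations of -0.03, 0.06 and 0.02 for numbers 1 to 3, and not every library correlated best with its own number. With the replicate block 31 USP genes rose and 1 fell, against 40.9% and 8.57% of all tested genes. Depth limits the lowest members: those tested had as few as 37 reads in a library, and the untested USP51 had as few as 4.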
